A study of Mus musculus with 4 samples.

Results

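The 8 mouse genes described here, Matk, Lrrk1, St3gal6, Atp8b4, Tm6sf1, Smim24, Wdr95 and Armc7, are little studied in T cells. They were chosen by their levels in tumor T cells labelled Tdp, which were above those in tumor T cells labelled Cd4, and make up 8 of the 14721 genes in the count table. The values of that comparison are therefore given as a description. The question put to the data was which of the genes were also higher in Cd8-labelled cells of the lymph node, which played no part in the choice.

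The series profiled T cells sorted from B16 melanoma, the mouse tumor line B16F10 grown under the skin, and T cells of the lymph node, by droplet sequencing of transcript 5′ ends. Mice with established tumors received cyclophosphamide, a drug that depletes lymphocytes, at 250 mg/kg, and then an intravenous transfer of purified TRP1 CD4+ T cells, whose transgenic receptor recognises a melanocyte protein. Tumors were taken on day 11 after transfer. There was 1 RNA library for each tissue, with no replicate, so every interval below covers counting error alone and no test between groups was possible. The titles give the tumor library both transgenic and endogenous receptors and the lymph node library endogenous ones, while strain (RAG1- BW TRP-1 TCR), a treatment entry of untreated, source and protocols read the same for both tissues and name only tumor material. The lymph node library is called so after its title. Neither the age of the mice nor how many were pooled is given in the labels.

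Cells carry the authors' labels, which are used as deposited. In the tumor library 2693 cells were labelled Tdp, 2451 Cd4 and 406 Tcell. In the lymph node library 2788 cells were labelled Cd8, 1873 Cd4 and 321 Treg, the last being regulatory T cells by name. The sources used here do not spell out Tdp. Of the Tdp cells, 75.3% held transcripts of Cd4 together with Cd8a or Cd8b1, the genes of the CD4 and CD8 coreceptors.

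A T cell carries an antigen receptor whose signal is started by Src family kinases and helped by the coreceptors CD4 or CD8. CD4 T cells usually act as helpers and CD8 T cells as killers, and most mature T cells keep 1 coreceptor. The 8 genes sit at different points of a T cell. Matk and Lrrk1 are kinases, St3gal6 builds sugar chains of the secretory pathway, Atp8b4, Tm6sf1 and Smim24 are membrane proteins, and Wdr95 and Armc7 are named for their protein repeats.

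The tumor library held 33147030 unique transcript counts (unique molecular identifiers, UMIs) in 5570 cells and the lymph node library 29067001 in 4988 cells. Median UMIs per cell were 6633 in Tdp and 5533 in Cd4 cells of the tumor, and 6306 in Cd8 and 4763 in Cd4 cells of the lymph node, but 2040 in the Tcell group. The libraries shared 36 cell barcodes, 0.646% of the tumor cells and 0.722% of the lymph node cells. Cd8b1 stood at 1118 counts per 1000000 UMIs (CPM) in Tdp against 41.2 in Cd4 tumor cells, and at 1144 CPM in Cd8 against 33.6 in Cd4 lymph node cells. Cd4 stood at 289 CPM in Tdp against 413 in Cd4 tumor cells, and at 13.0 CPM in Cd8 against 159 in Cd4 lymph node cells. The Treg group had Foxp3, the regulatory T cell factor, at 394 CPM, but also Cd8b1 at 157 CPM.

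Markers of other cell types moved with the labels in part. The natural killer list (5 of 6 genes in the table) summed to 156 CPM in Tdp against 16.7 in Cd4 tumor cells, led in Tdp by Gzma at 112 CPM. Of its genes, Ncr1 and Klra8 were at 0 in both. Klrb1c went the other way, at 1.53 CPM in Tdp against 3.15 in Cd4 tumor cells. The list summed to 72.8 CPM in Cd8 against 4.11 in Cd4 lymph node cells, led in Cd8 cells by Eomes at 51.8 CPM. None of the 5 was at 0 in lymph node Cd8 cells, while Ncr1, Klrb1c and Klra8 were at 0 in lymph node Cd4 cells. Both leading genes are also made by T cells. The myeloid list (7 of 8 genes in the table) summed to 15.0 CPM in Tdp against 5.30 in Cd4 tumor cells and to 7.12 CPM in Cd8 against 5.11 in Cd4 lymph node cells, with Adgre1 at 0 in these groups. Cd68 led it in each, at 13.0 CPM in Tdp against 3.08 in Cd4 tumor cells. Without Cd68 it summed to 2.03 CPM in Tdp against 2.22 in Cd4 tumor cells. In the lymph node it then summed to 0.993 CPM in Cd8 against 0.889 in Cd4 cells. The B cell list (5 of 5) summed to 8.06 CPM in Tdp against 24.9 in Cd4 tumor cells and to 215 CPM in Cd8 against 233 in Cd4 lymph node cells, led by Ighm in each, with Ms4a1 at 0. Without Ighm it summed to 1.92 CPM in Tdp against 0.0716 in Cd4 tumor cells and to 19.8 CPM in Cd8 against 1.11 in Cd4 lymph node cells, most of it Cd79b at 19.3 CPM in the Cd8 cells. The gamma delta T cell list (3 of 3) summed to 140 CPM in Tdp against 114 in Cd4 tumor cells and to 4.14 CPM in Cd8 against 2.89 in Cd4 lymph node cells. Trdc led it in each of these groups. Without Trdc the list summed to 0.164 CPM in Tdp against 0 in Cd4 tumor cells. In the lymph node it then summed to 1.99 CPM in Cd8 against 0.556 in Cd4 cells. The melanoma and dendritic lists summed to at most 0.716 CPM in these groups. An alternative left out cells holding 2 or more UMIs of such markers (Gzma, Eomes and the gamma delta and dendritic lists not counted). It kept 2633 of 2693 Tdp and 2380 of 2451 Cd4 tumor cells, but 1692 of 2788 Cd8 and 1300 of 1873 Cd4 lymph node cells. Without the cells left out, all 8 genes were at least 2-fold higher in Tdp than in Cd4 tumor cells. In the lymph node, 3 of the 8 were called higher in Cd8 than in Cd4 cells by the rule below. Without the barcodes found in both libraries, an alternative chosen after seeing the data, as many of the 8 genes were called in each comparison below as with them.

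UMIs were summed over the cells of a label and divided by the label's total. A gene was called higher at a fold of 2 or more on the scale of log2(CPM + 1), with 20 CPM or more in either group. In the tumor, 8 of the 8 genes were called higher in Tdp than in Cd4 cells, as the choice of the genes fixes, where 1.18% of the 4820 genes past the minimum were called higher. In the lymph node, 4 of the 8 genes were called higher in Cd8 than in Cd4 cells: St3gal6, Atp8b4, Tm6sf1 and Smim24. There, 2.12% of 4530 genes past the minimum were called higher, and 5 of the 8 genes passed the minimum, the fifth being Armc7. St3gal6, Atp8b4 and Armc7 reached 20 CPM in both groups. Tm6sf1 and Smim24, at 8.45 and 7.67 CPM in Cd4 cells, reached it only in the Cd8 cells in which they are high. Nothing is read from the calls of Tm6sf1 and Smim24 beyond their levels, here or in the family lists below. Each family list counts the gene itself, whose call in the tumor was fixed by the choice. The shares of 1.18% and 2.12% are the background of those lists too, and nothing is read from their counts. Lrrk1 and Wdr95 were below 20 CPM in both lymph node groups, yet nearly all of their lymph node UMIs outside the Treg group lay in Cd8 cells. With a minimum of 50 UMIs over both groups in place of 20 CPM, chosen after the values were seen, 6 of the 8 genes were called higher in lymph node Cd8 cells (background 3.19% of 9438 genes). The genes gained, Lrrk1 and Wdr95, pass that minimum through the Cd8 cells in which they are high, so nothing is read from the count. Smim24 was no longer called with a pseudocount of 10 CPM (log2 ratio 0.82), nor without cells holding markers of other cell types, where it was at 19.7 CPM in Cd8 against 7.33 in Cd4 cells. Matk was the gene whose level was alike in Cd8 and Cd4 lymph node cells. The median log2 ratio of the 8 genes was 1.56 in the tumor, where the median of the genes past the minimum was -0.11, and 1.36 in the lymph node, where that median was -0.07.

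**Figure D1:**
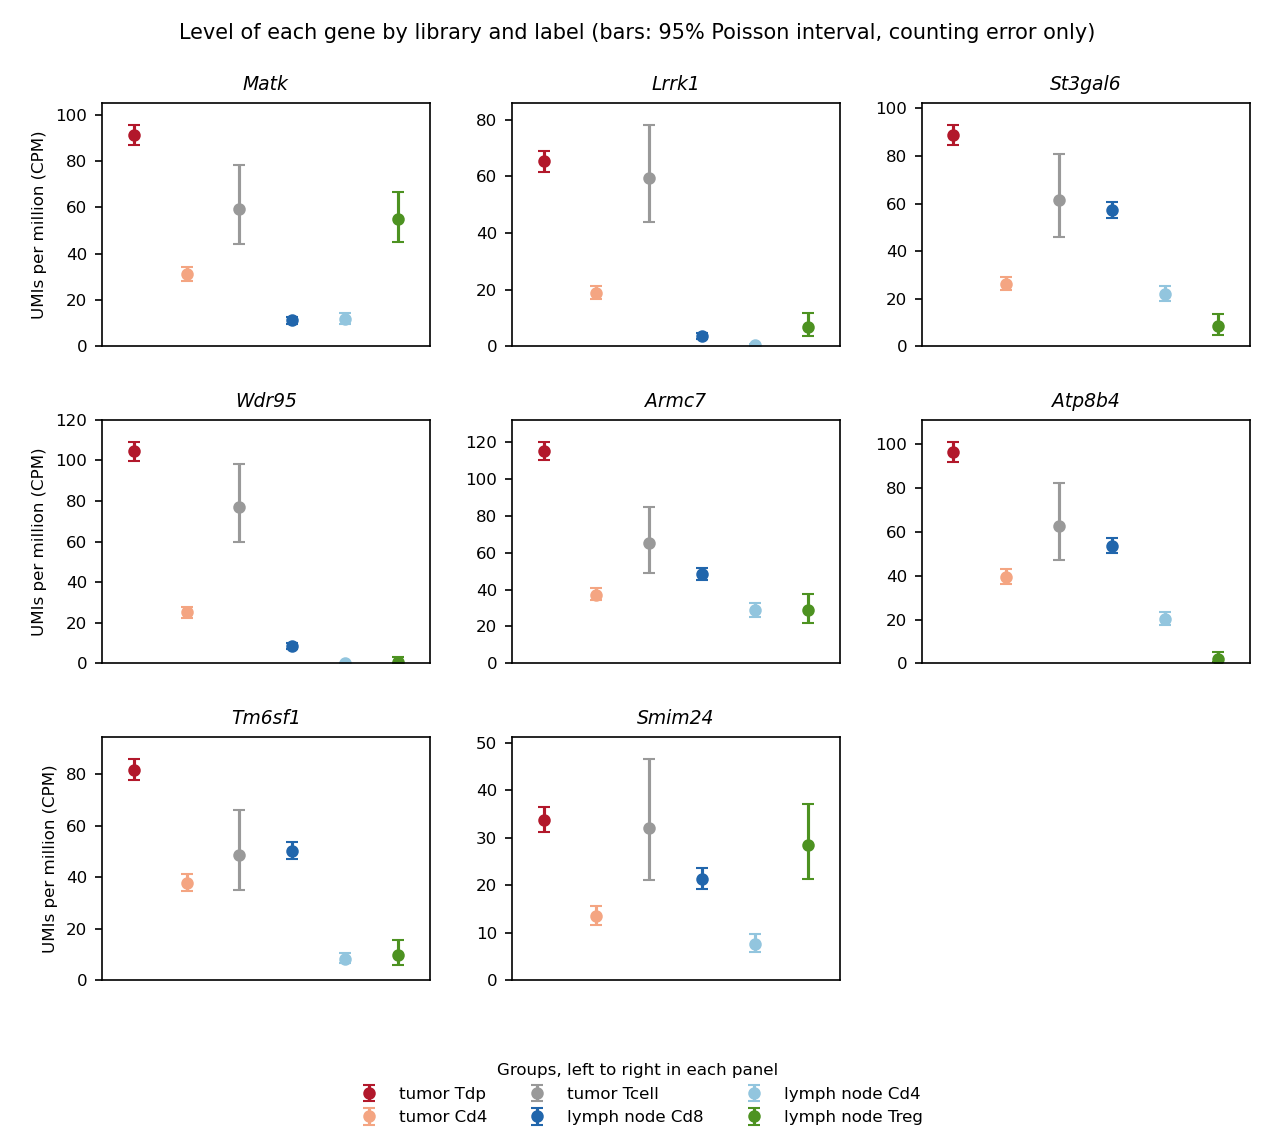
Level of each of the 8 genes in 6 groups of cells (vertical axis, CPM, linear and starting at 0, with its own range for each gene); points are sums over the cells of a label and bars 95% Poisson intervals for counting error. Tumor Tdp cells stood above tumor Cd4 cells for each gene, while among lymph node cells Wdr95 was at 8.39 CPM in Cd8 and 0 in Cd4 cells and Matk at 11.3 and 12.0 CPM.

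Matk encodes a relative of the kinase Csk that phosphorylates the inhibitory tyrosine of Src family kinases, the kinases that start receptor signalling in T cells. It lies on chromosome 10 (81252935 to 81262985, mm10). It stood at 91.2 CPM in tumor Tdp cells, 31.2 in tumor Cd4 cells, 11.3 in lymph node Cd8 cells and 12.0 in lymph node Cd4 cells, with 59.3 in tumor Tcell and 55.2 in lymph node Treg cells. The tumor groups and the Treg group were high, and the Cd8 and Cd4 groups of the lymph node were low and alike. The fold was 2.92 (95% interval 2.63 to 3.25) for tumor Tdp over Cd4 cells and 0.938 (0.739 to 1.20) for lymph node Cd8 over Cd4 cells. Among 13 Src family kinases and their regulators in the table, 7 passed the minimum in the tumor, and Matk was the 1 called higher; in the lymph node 6 passed it and 0 were called. Csk itself was at 125 CPM in Tdp against 118 in Cd4 tumor cells, and Lck, the kinase bound to the coreceptors, at 689 CPM in Tdp against 787 in Cd4 tumor cells. Pag1, a membrane anchor of Csk, was at 70.1 CPM in Tdp against 43.0 in Cd4 tumor cells, and at 58.8 CPM in Cd8 against 86.9 in Cd4 lymph node cells.

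Lrrk1 encodes a large kinase with leucine-rich repeats and a GTPase domain, known for phosphorylating the small GTPase Rab7 and for its need in mouse osteoclasts. It lies on chromosome 7 (66258745 to 66388341). It stood at 65.3 CPM in tumor Tdp cells, 18.9 in tumor Cd4 cells, 3.59 in lymph node Cd8 cells and 0.334 in lymph node Cd4 cells, with 59.3 in tumor Tcell and 6.83 in lymph node Treg cells. Each of these 3 tumor groups stood above each of the 3 lymph node groups. The fold was 3.45 (3.02 to 3.96) for tumor Tdp over Cd4 cells and 10.8 (3.52 to 53.5) for lymph node Cd8 over Cd4 cells, where it rests on 65 against 3 UMIs and on levels below the minimum. Of 10 LRRK, Rab and related genes in the table, 6 passed the minimum in the tumor and Lrrk1 was the 1 called higher. In the lymph node 6 passed it, 0 were called higher and Mfhas1, a relative with leucine-rich repeats, was called lower, at 10.9 CPM in Cd8 against 24.6 in Cd4 cells. Rab7 was at 126 CPM in Tdp against 149 in Cd4 tumor cells.

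St3gal6 encodes a sialyltransferase that caps galactose with sialic acid and takes part in making selectin ligands on mouse leukocytes. It lies on chromosome 16 (58469742 to 58524260). It stood at 88.7 CPM in tumor Tdp cells, 26.3 in tumor Cd4 cells, 57.2 in lymph node Cd8 cells and 22.0 in lymph node Cd4 cells, with 61.7 in tumor Tcell and 8.40 in lymph node Treg cells. The Cd4 groups of both tissues were close to each other, and the Tdp and Cd8 groups were above them. The fold was 3.37 (3.01 to 3.79) for tumor Tdp over Cd4 cells and 2.60 (2.23 to 3.04) for lymph node Cd8 over Cd4 cells. The other sialyltransferases gave no call in that direction: of 14 in the table, 5 passed the minimum in the tumor, where St3gal6 was the 1 called higher and St6gal1, the enzyme of the other common galactose cap, was called lower, at 1.26 CPM in Tdp against 23.7 in Cd4 cells. In the lymph node 8 passed it, St3gal6 was the 1 called higher, and St8sia1 and St8sia6 were called lower, St8sia6 at 1.43 CPM in Cd8 against 41.7 in Cd4 cells. St3gal4, the nearest relative by function, was at 48.4 CPM in Tdp against 35.1 in Cd4 tumor cells and at 22.5 CPM in Cd8 against 18.3 in Cd4 lymph node cells. Of 8 genes for selectin ligand enzymes and scaffolds, 4 passed the minimum in each tissue and 0 were called; Selplg, the main scaffold, was at 676 CPM in Tdp against 539 in Cd4 tumor cells.

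The upstream sequences of St3gal6 and Smim24 are shown because both genes were higher in Tdp and in lymph node Cd8 cells. In addition, 1 window of each holds the core letters of RUNX factors, known for controlling the coreceptor genes, or of T-box factors such as Eomes. Each is the 250 bases before a RefSeq start site in GRCm38.p6, 5′ to 3′ on the strand of the gene. Capitals mark TGTGGT, read ACCACA on the other strand (RUNX), and TCACAC, read GTGTGA on the other strand (T-box); both strands were searched.
St3gal6, chr16:58524254-58524503, minus strand: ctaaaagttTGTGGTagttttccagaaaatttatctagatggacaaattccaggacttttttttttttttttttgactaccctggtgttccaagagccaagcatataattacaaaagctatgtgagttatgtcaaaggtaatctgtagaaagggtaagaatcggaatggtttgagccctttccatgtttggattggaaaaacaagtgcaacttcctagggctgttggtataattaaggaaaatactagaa
Smim24, chr10:81392814-81393063, plus strand: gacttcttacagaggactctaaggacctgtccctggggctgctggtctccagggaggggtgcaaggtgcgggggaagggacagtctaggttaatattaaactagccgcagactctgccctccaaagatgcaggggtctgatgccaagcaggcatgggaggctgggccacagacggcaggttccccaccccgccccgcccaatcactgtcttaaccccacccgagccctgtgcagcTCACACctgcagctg
RefSeq windows were found for 6 of the 8 genes (8 windows), all but Wdr95 and Tm6sf1. RUNX letters stood in 1 of the 8 windows, the St3gal6 window shown, and in 14.0% of 32851 windows in the table. The other St3gal6 window, chr16:58523427-58523676, held none of the patterns searched. T-box letters stood in 1 of the 8, that of Smim24, and in 12.3% of the windows. The ETS letters GGAAGT, read ACTTCC on the other strand and left in lower case above, stood in 3 of the 8 (1 each of Armc7, Atp8b4 and St3gal6) and in 19.7% of the windows. The 3 patterns can overlap at their ends, and these are matches of letters and not binding sites.

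Atp8b4 encodes a P4-ATPase, a class of pumps that move phospholipids across a membrane. It lies on chromosome 2 (126320973 to 126500669). It stood at 96.6 CPM in tumor Tdp cells, 39.7 in tumor Cd4 cells, 53.6 in lymph node Cd8 cells and 20.5 in lymph node Cd4 cells, with 62.9 in tumor Tcell and 2.10 in lymph node Treg cells. The Treg group was the lowest, with 4 UMIs in 321 cells. The folds in the tissues were close, at 2.44 (2.21 to 2.68) for tumor Tdp over Cd4 cells and 2.62 (2.24 to 3.08) for lymph node Cd8 over Cd4 cells. Of 14 flippase and subunit genes in the table, 5 passed the minimum in the tumor and 6 in the lymph node, and Atp8b4 was the 1 called higher in each. Tmem30a, the subunit that most flippases need, was at 122 CPM in Tdp against 112 in Cd4 tumor cells and at 56.6 CPM in Cd8 against 52.3 in Cd4 lymph node cells.

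Tm6sf1 encodes a lysosomal protein that crosses the membrane many times, a relative of the liver lipid gene Tm6sf2. It lies on chromosome 7 (81858718 to 81884079). It stood at 81.6 CPM in tumor Tdp cells, 37.8 in tumor Cd4 cells, 50.2 in lymph node Cd8 cells and 8.45 in lymph node Cd4 cells, with 48.6 in tumor Tcell and 9.98 in lymph node Treg cells. The Cd4 cells of the lymph node were low while those of the tumor were not. The fold was 2.16 (1.95 to 2.39) for tumor Tdp over Cd4 cells, the smallest of the 8, and 5.94 (4.69 to 7.61) for lymph node Cd8 over Cd4 cells. Hdgfl3, which overlaps Tm6sf1 in RefSeq, was at 16.2 CPM in Tdp against 7.88 in Cd4 tumor cells and at 22.9 CPM in Cd8 against 7.78 in Cd4 lymph node cells, so the split of reads between the pair is uncertain. Of 5 genes of its list in the table, which share the EXPERA domain, 3 passed the minimum in each tissue. Tm6sf1 was the 1 called higher in each. Its tumor call was fixed by the choice, and in the lymph node it reached 20 CPM in the Cd8 cells only. Ebp, a sterol isomerase, was at 78.2 CPM in Tdp against 75.9 in Cd4 tumor cells and at 40.5 CPM in Cd8 against 43.6 in Cd4 lymph node cells.

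Smim24 encodes a small protein with a single membrane span, of little known function, on chromosome 10 (81393064 to 81395079). It stood at 33.8 CPM in tumor Tdp cells, 13.6 in tumor Cd4 cells, 21.3 in lymph node Cd8 cells and 7.67 in lymph node Cd4 cells, with 32.0 in tumor Tcell and 28.4 in lymph node Treg cells. As with Matk, the Treg group stood above the Cd8 group of the same library. The fold was 2.48 (2.11 to 2.94) for tumor Tdp over Cd4 cells and 2.78 (2.14 to 3.64) for lymph node Cd8 over Cd4 cells. Of 18 genes named Smim in the table, Smim24 included, 12 passed the minimum in each tissue and Smim24 was the 1 called higher in each. Its tumor call was fixed by the choice, and in the lymph node it reached 20 CPM in the Cd8 cells only. Matk and Smim24 lie 130078 bases apart. Of the 17 genes between them 13 were in the table, and 0 of the 5 past the minimum in the tumor and 0 of the 4 in the lymph node were called higher. The background was 1.18% of genes in the tumor and 2.12% in the lymph node, so nothing is read from these counts. Below the minimum, Tjp3 was at 9.04 CPM in Tdp against 3.08 in Cd4 tumor cells (log2 ratio 1.30). Gipc3, also below it, was at 2.96 against 0.788 CPM (log2 ratio 1.15).

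Wdr95 encodes a protein with WD repeats, which usually serve as a platform for other proteins, and lies on chromosome 5 (149484409 to 149611894). It stood at 104 CPM in tumor Tdp cells, 25.1 in tumor Cd4 cells, 8.39 in lymph node Cd8 cells and 0 in lymph node Cd4 cells, with 77.1 in tumor Tcell and 0.525 in lymph node Treg cells. In the lymph node it was detected in 152 UMIs of Cd8 cells and in none of 8994187 UMIs of Cd4 cells. The fold was 4.16 (3.71 to 4.68) for tumor Tdp over Cd4 cells. Against a floor of 3 UMIs over the Cd4 group, lymph node Cd8 cells were at least 25.2-fold higher, and the exact 95% interval of the ratio starts at 20.2. Of 55 genes named Wdr in the table, 12 passed the minimum in the tumor and Wdr95 was the 1 called higher; in the lymph node 15 passed it and 0 were called.

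Armc7 encodes a protein with armadillo repeats and lies on chromosome 11 (115475635 to 115490468). It stood at 115 CPM in tumor Tdp cells, 37.2 in tumor Cd4 cells, 48.6 in lymph node Cd8 cells and 28.8 in lymph node Cd4 cells, with 65.3 in tumor Tcell and 28.9 in lymph node Treg cells. The Tdp cells stood above the other 5 groups, which lay between 28.8 and 65.3 CPM. The fold was 3.09 (2.80 to 3.41) for tumor Tdp over Cd4 cells and 1.69 (1.47 to 1.94) for lymph node Cd8 over Cd4 cells, below the fold of 2. Armc7 overlaps Nt5c in RefSeq, which was at 156 CPM in Tdp against 190 in Cd4 tumor cells and at 134 CPM in Cd8 against 118 in Cd4 lymph node cells. Armc10 was at 42.6 CPM in Tdp against 40.9 in Cd4 tumor cells, and 3 of the 15 measured genes of the armadillo list passed the minimum in the tumor, with Armc7 the 1 called higher.

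**Figure D2:**
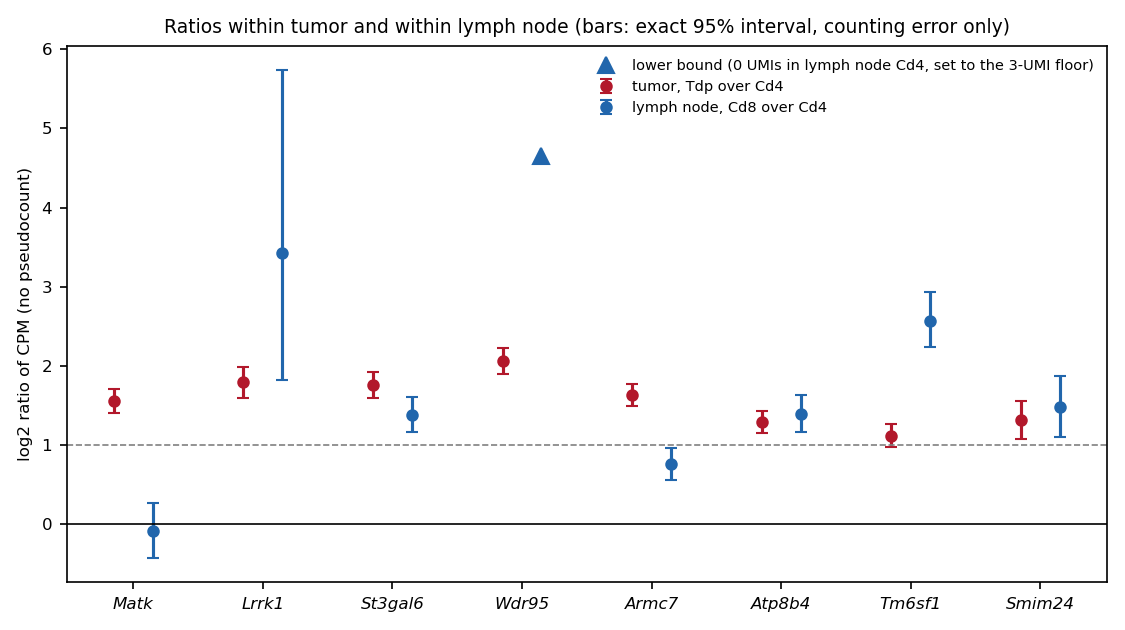
Log2 ratio of CPM, tumor Tdp over Cd4 cells and lymph node Cd8 over Cd4 cells, for each of the 8 genes (points, with exact 95% intervals for counting error; the dashed line marks a fold of 2, and the triangle a lower bound for Wdr95 against 0 UMIs). The intervals of the tissues do not overlap for Matk, Wdr95, Armc7 and Tm6sf1, with Matk and Armc7 larger in the tumor and Wdr95 and Tm6sf1 larger in the lymph node. How common such separation is among all genes was not computed.

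Set side by side, the folds of the tissues had overlapping intervals for Lrrk1, St3gal6, Atp8b4 and Smim24, and separate ones for Matk, Wdr95, Armc7 and Tm6sf1. The Matk and Armc7 folds were larger in the tumor, and the Wdr95 and Tm6sf1 folds in the lymph node. With 1 library for each tissue, these gaps between tissues could not be tested against the spread of replicates. The share of all genes with separate intervals was not computed, so nothing is read from the number of genes on either side.

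The lymph node groups allowed the tumor cells to be read against cells of the same coreceptor label. Tumor Cd4 cells stood above lymph node Cd4 cells for each of the 8 genes. The share of all genes that did so was not computed, so nothing is read from that number. The median log2 ratio of genes past the minimum was itself 0.20, with St3gal6 at 0.25 and Armc7 at 0.36. Wdr95 had 350 UMIs in tumor Cd4 cells against 0 in lymph node Cd4 cells, at least 75.1-fold higher at the floor of 3 UMIs, with an exact 95% interval that starts at 60.8, and Lrrk1 had 264 against 3 UMIs, 56.7-fold higher (19.2 to 277). Tm6sf1 was 4.47-fold and Matk 2.60-fold higher in tumor than in lymph node Cd4 cells. Together with Wdr95 these were the 3 called of the 6 genes past the minimum, against a background of 14.7% of 5134 genes. All 3 reached 20 CPM only in the tumor cells in which they are high, so nothing is read from that count. Lrrk1 and Smim24, at 18.9 and 13.6 CPM in tumor Cd4 cells, were below 20 CPM in both groups and could not be called. St3gal6 was 1.19-fold higher in tumor Cd4 cells, and its log2 ratio was -0.06 when totals left out receptor segments, mitochondrial and ribosomal protein genes. Tissue, receptor and state of activation cannot be told apart in this comparison.

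Tumor Tdp cells stood above lymph node Cd8 cells for 8 of the 8 genes, which were chosen for their levels in Tdp cells. The share of all genes that did so was not computed, so nothing is read from that number. Matk was 8.10-fold higher, Lrrk1 18.2-fold, Wdr95 12.4-fold and Armc7 2.37-fold, which made 4 genes called against a background of 11.4% of 4837 genes. Of these, Armc7 alone reached 20 CPM in both groups, so nothing is read from the count. St3gal6, Atp8b4, Tm6sf1 and Smim24 were 1.55-fold to 1.80-fold higher in Tdp cells and were not called. With totals that left out receptor segments, mitochondrial and ribosomal protein genes, the log2 ratio of Armc7 was 0.92 and it was no longer called. The median log2 ratio of genes past the minimum was 0.20 between the Cd4 groups and 0.17 between Tdp and Cd8 cells. Here too tissue, receptor and activation cannot be told apart, and both comparisons share their groups with those above.

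The coreceptor transcripts within a label gave a finer view. Of the Tdp cells, 2028 held UMIs of Cd4 and of Cd8a or Cd8b1 (double positive), 554 held Cd8 UMIs without Cd4 (CD8 single positive) and 86 held Cd4 UMIs without Cd8 (CD4 single positive). Levels in CD8 single positive cells were 0.853-fold to 1.14-fold those in double positive cells, and 0 of the 8 genes were called higher (background 0.0438%). A missing Cd4 UMI thus went with little difference in any of the 8. At 2000 UMIs per cell Cd4 was detected in 42.5% of Tdp cells, so a missing UMI need not mean a cell without Cd4. The CD8 single positive cells were also shallower, with a median of 5810.5 UMIs. In CD4 single positive Tdp cells Wdr95 was at 41.4 CPM (20 UMIs) against 104 in double positive cells, the 1 gene called lower (background 1.36%). Matk was at 53.8 CPM in CD4 single positive against 92.7 in double positive cells, whereas Lrrk1 (66.2 against 65.5 CPM) and Atp8b4 (93.2 against 96.6 CPM) were close. St3gal6 was at 0.663-fold (0.439 to 0.963), Tm6sf1 at 0.679-fold (0.445 to 0.993), Smim24 at 0.711-fold (0.365 to 1.25) and Armc7 at 0.733-fold (0.522 to 1.00) of the double positive level. The median log2 ratio of the 8 genes was -0.51, where that of the genes past the minimum was 0.08. The 86 cells had a median of 5373 UMIs, against 6892 in double positive cells.

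Among tumor Cd4 cells, 251 held a Cd8a or Cd8b1 UMI and 2200 did not. Lrrk1 was at 31.2 CPM in cells with such a UMI against 17.2 in cells without, a fold of 1.81 (1.32 to 2.46). St3gal6 was 1.67-fold and Wdr95 1.52-fold higher in the cells with Cd8 UMIs, while Tm6sf1 was 1.07-fold (0.815 to 1.38). Of the 7 genes past the minimum, 0 were called higher (background 0.164%). A Cd8 UMI in a Cd4-labelled cell can also come from free RNA or a second cell in the droplet, and their part was not tested.

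**Figure D3:**
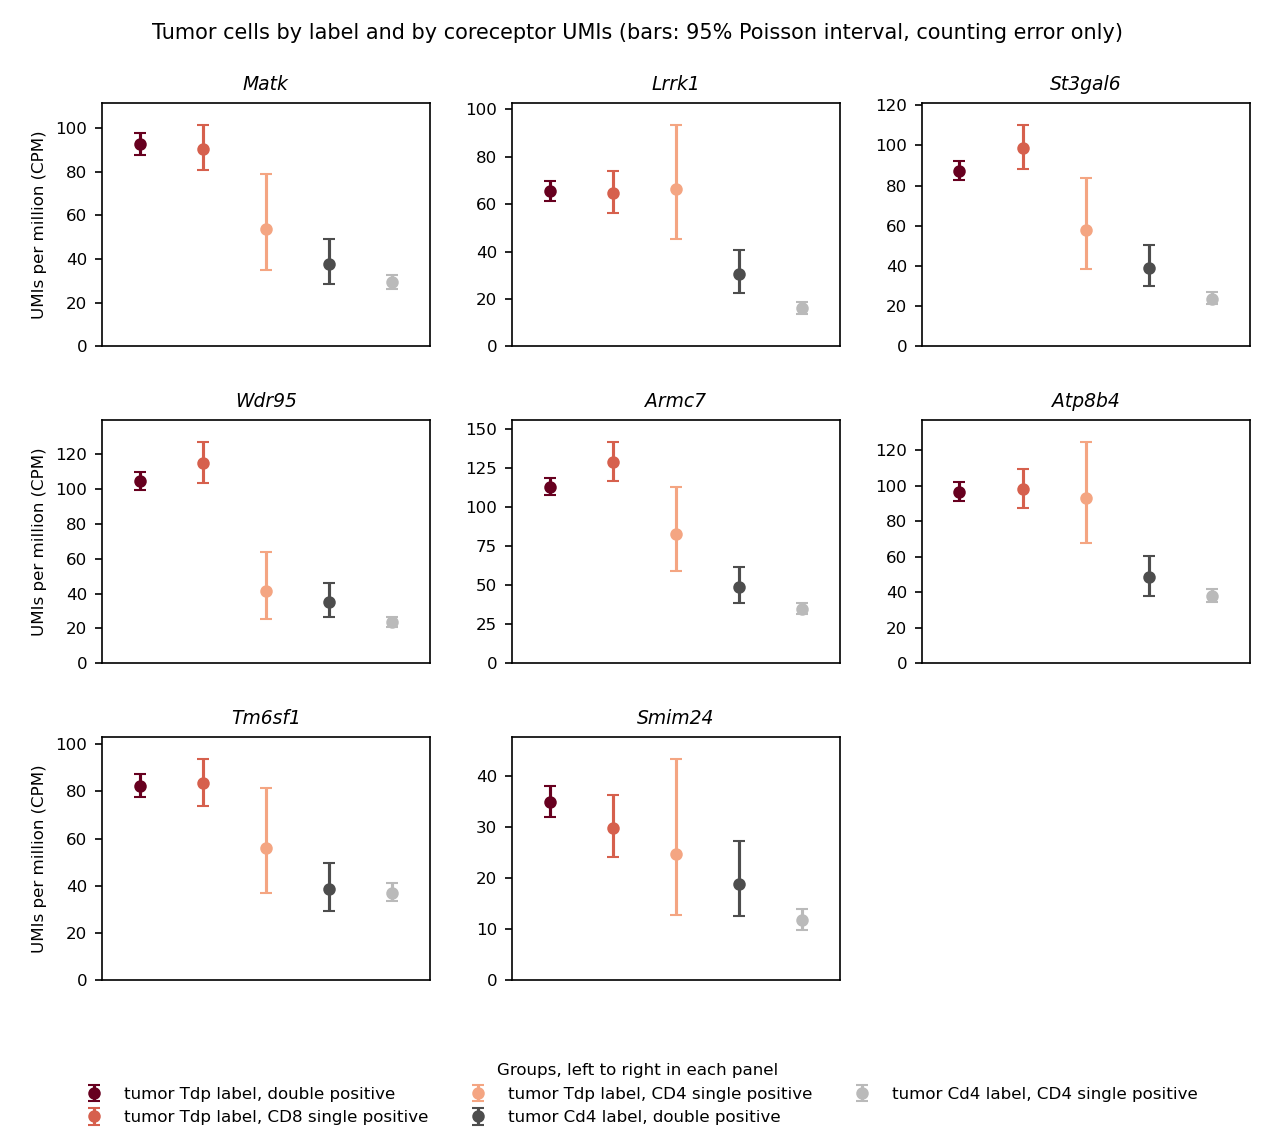
Level of each gene (CPM, with 95% Poisson intervals for counting error) in tumor cells split by label and coreceptor UMIs: Tdp double positive, Tdp CD8 single positive and Tdp CD4 single positive, then Cd4 double positive and Cd4 CD4 single positive. Tdp cells with and without Cd4 UMIs stood close for the 8 genes, and Wdr95 was at 41.4 CPM in CD4 single positive Tdp cells against 104 CPM in double positive ones.

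In the lymph node Treg group, 84 cells held Cd8 UMIs and 237 did not, with medians of 8071 and 4992 UMIs. The 4 Atp8b4 UMIs of the group lay in the cells with Cd8 UMIs and 0 in the others. St3gal6 was at 17.2 CPM (11 UMIs) in Treg cells with Cd8 UMIs against 3.96 (5 UMIs) in those without, a fold of 4.34 (1.39 to 15.9). Matk and Smim24, the genes at which the Treg group was high, showed no such excess, with Matk at 40.6 CPM in cells with Cd8 UMIs against 62.5 in cells without and Smim24 at 29.7 against 27.7. Of the 3 genes past the minimum, 0 were called higher (background 1.72%).

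Eomes, a T-box factor of memory CD8 and natural killer cells, was detected in 611 of the 2788 lymph node Cd8 cells. Lrrk1 was at 7.94 CPM in cells with an Eomes UMI against 2.14 in cells without, a fold of 3.72 (2.22 to 6.28). Wdr95 was 1.90-fold, St3gal6 1.60-fold, Tm6sf1 1.41-fold and Armc7 1.39-fold higher in cells with Eomes, while Atp8b4 and Smim24 were within 1.07-fold. Matk went the other way, at 0.496-fold (0.323 to 0.738) in cells with Eomes. Of the 5 genes past the minimum, 0 were called in either direction (background 0.299% higher and 0.345% lower), and cells with an Eomes UMI were deeper, with a median of 7150 UMIs against 6110. Without the cells holding an Eomes UMI, an alternative chosen after seeing the data, 4 of the 8 genes were called higher in lymph node Cd8 than in Cd4 cells.

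Per cell the 8 transcripts were sparse. Each cell was thinned to 2000 UMIs, which left out 30 Tdp and 33 Cd4 tumor cells, 26 Cd8 and 62 Cd4 lymph node cells. Armc7 was then detected in 19.7% (18.2 to 21.3) of Tdp cells against 7.49% (6.47 to 8.61) of Cd4 tumor cells; without thinning the shares were 47.8% and 17.3%. Tm6sf1 was detected in 15.3% of Tdp against 7.20% of Cd4 tumor cells and in 9.02% of Cd8 against 1.66% of Cd4 lymph node cells (40.2%, 17.3%, 26.0% and 3.90% without thinning). Cd8b1 UMIs were found at this depth in 4.76% of Cd4 tumor cells and 4.42% of Cd4 lymph node cells, groups labelled Cd4. A low share in a Cd4 group alone is not read as expression. Cd8b1 sets no level for the 8 genes, since its source is far larger. It stood at 1118 CPM in Tdp cells, where the 8 ran from 33.8 CPM (Smim24) to 115 CPM (Armc7). The part of free RNA in their shares was not tested. Cells in which a gene was found held few copies: the mean was 1.63 UMIs for Armc7, 1.51 for Wdr95 and 1.19 for Smim24 in Tdp cells.

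**Figure D4:**
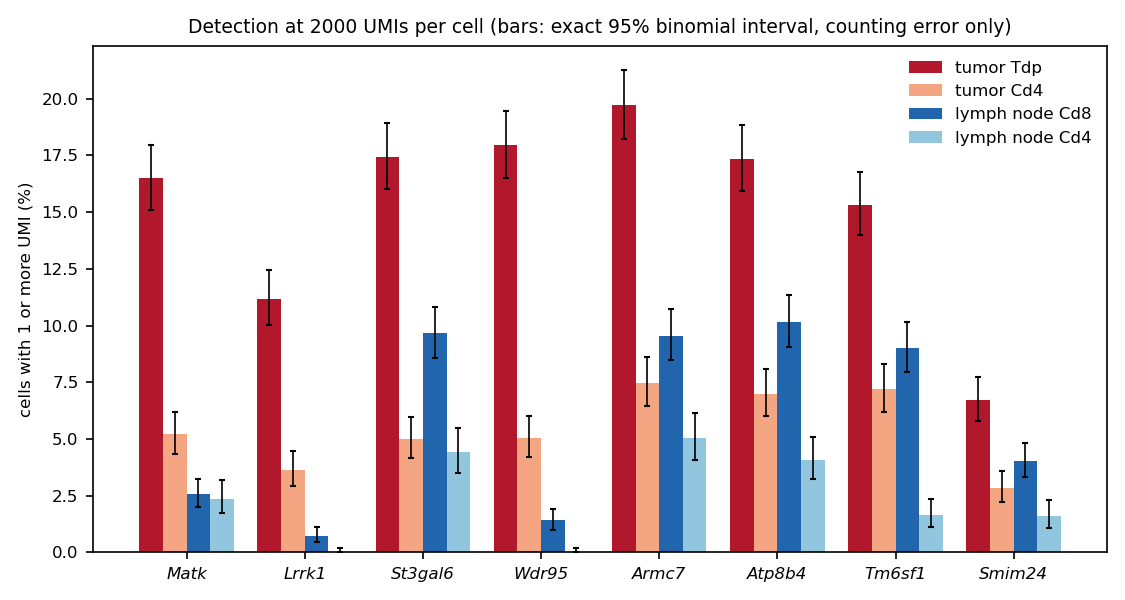
Share of cells with 1 or more UMI of each gene (vertical axis, percent, with exact 95% Clopper-Pearson intervals) after thinning every cell to 2000 UMIs, in tumor Tdp, tumor Cd4, lymph node Cd8 and lymph node Cd4 cells. Tdp shares reached 19.7% for Armc7, while Wdr95 was found in 17.9% of Tdp, 5.05% of tumor Cd4, 1.41% of lymph node Cd8 and 0% of lymph node Cd4 cells.

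Counted over the 8 genes at 2000 UMIs, a Tdp cell held 1.22 of them on average against 0.434 in a Cd4 tumor cell, and a lymph node Cd8 cell 0.471 against 0.192 in a lymph node Cd4 cell. Detection of 3 or more of the 8 was seen in 11.0% (9.87 to 12.3) of Tdp against 1.12% (0.737 to 1.62) of Cd4 tumor cells. The corresponding lymph node shares were 0.978% (0.645 to 1.42) of Cd8 cells and 0 of 1811 Cd4 cells, whose upper limit is 0.203%. The tumor pair restates the values that chose the genes.

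The genes with the most similar profiles were sought over the 6 groups among 2853 genes that reached 50 CPM in some group, by the root mean square distance of log2(CPM + 1) values centred on each gene's mean, with Pearson's r as a description over 6 groups of 2 libraries. Wdr95 was nearest to Plek (distance 0.482, r = 0.983) and the chemokine gene Ccl5 (0.608, r = 0.984). Matk was nearest to Il10ra, the interleukin-10 receptor chain (0.362, r = 0.946), Tm6sf1 to Jaml, an adhesion molecule (0.324, r = 0.969), and St3gal6 to Jaml as well (0.426, r = 0.921). Atp8b4 had Sema4a (0.573) and St3gal6 (0.676) as its neighbours, Smim24 had Ikzf3 (0.272), and Armc7 had Abcb9 (0.289) and Sgk1 (0.297). Lrrk1 had Ctla2b (0.421, r = 0.982) and Ybx3 (0.539, r = 0.967) among its neighbours. The other neighbours reported were Coro2a and Ubash3b for Matk, Gramd3 and Sema4a for St3gal6, Ctla2a for Wdr95, Magohb for Armc7, Themis for Atp8b4, Dnajc15 and Ctsw for Tm6sf1, and Eva1b and Tmem256 for Smim24. St3gal6 was the 1 of the 8 genes that appeared as the neighbour of another of them, Atp8b4, and St3gal6 and Tm6sf1 shared Jaml as their nearest.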

How the data were processed

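The deposited table holds UMI counts per gene and cell for both libraries together, and a second table holds the authors' label and library for each cell (other values, per the file headers). The submitters' processing notes name Cell Ranger (version 3.1.0) and the mm10 build. The labels state neither how cells were annotated nor whether doublets were removed. Genes were matched by symbol. The receptor libraries were not analysed here, except that 1 alternative kept the cells with a receptor call in the second table. Some results, 1 gene of the list among them, are not reported here.

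Counts were summed over the cells of a label within a library, divided by the label's total and scaled to CPM. Ratios are log2((CPM + 1)/(CPM + 1)); folds are ratios of CPM with exact conditional Poisson intervals, levels have Poisson intervals and shares have Clopper-Pearson intervals, all at 95%. They cover counting error only, since amplified reads and cells of 1 library are not independent samples. A count of 0 was set against a floor of 3 UMIs per group. No doublet caller was run; leaving out the deepest 5% of cells was an alternative. Coreceptor classes used 1 or more UMI. Neighbouring profiles and relatives were named by a fixed rule (3 neighbours per gene; list members with 20 CPM or more in either group, or the nearest relative). The genes, lists and tests were chosen with earlier results of these data known. Positions and upstream sequences are from RefSeq tables of GRCm38.p6 (mm10).

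Alternatives were TMM scaling (edgeR 4.0.16 in R 4.3.3), another total, means per cell, thinned cells, other minimums and pseudocounts, and other choices of cells. Scripts used Python 3.11.15, numpy 2.4.6, scipy 1.17.1 and pandas 2.3.3, and the ratio and interval steps were tested on simulated counts.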

Additional observations from a re-analysis of the deposited data

Results flagged for a closer look

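Matk was picked out because its ratio differed between the tissues: the log2 ratio was 1.52 for tumor Tdp over Cd4 cells and -0.0856 for lymph node Cd8 over Cd4 cells. This difference was not tested, since each tissue has 1 library. Small groups outside the comparisons gave 2 further values. Matk stood at 203 CPM (18 UMIs, 95% interval 120 to 320) in the 19 tumor cells labelled Treg, above the 31.2 CPM of tumor Cd4 cells. Atp8b4 stood at 101 CPM (5 UMIs in 6 cells, interval 32.7 to 235) in the lymph node cells labelled Tdp, above the 20.5 CPM of lymph node Cd4 cells. The 5 UMIs lay in 2 cells, with 3 in 1 of them, and all 6 cells held Cd8 UMIs without Cd4, while the 53.6 CPM of lymph node Cd8 cells lies inside that interval.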

How the results depend on the processing

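No result changed direction past the fold of 2 under the alternatives run, and the lymph node folds of Lrrk1 and Wdr95 rest on 3 and 0 UMIs in Cd4 cells. No paired analysis was possible because each tissue has 1 RNA library. In each list that follows, counts of genes are given for Tdp over Cd4 in the tumor, Cd8 over Cd4 in the lymph node, Cd4 tumor over lymph node, and Tdp over lymph node Cd8, in this order. As reported, 57, 96, 757 and 552 genes were higher and 111, 65, 319 and 248 lower. With no CPM minimum, 198, 372, 1475 and 1047 were higher and 335, 184, 922 and 837 lower. With 50 UMIs in place of it, added after seeing the data, 175, 301, 1262 and 951 were higher and 278, 144, 673 and 714 lower. With a minimum of 50 CPM, 31, 42, 449 and 343 were higher and 61, 29, 169 and 121 lower. With a pseudocount of 10 CPM, 31 genes were higher in Tdp tumor cells and 39 lower in Cd8 lymph node cells. Totals without receptor segments, mitochondrial and ribosomal protein genes gave 89 and 162 higher genes within the tissues and 799 and 669 lower genes between them. They also moved the share of calls that were higher to 44.2%, against 70.4%, between the Cd4 groups and to 39.2%, against 69.0%, between Tdp and Cd8 cells, with the median gene at -0.17 and -0.20, against 0.20 and 0.17. TMM scaling moved that share to 45.8%, against 33.9%, in the tumor. With coreceptor UMIs in place of labels, 67 genes were higher and 75 lower in lymph node cells with Cd8 UMIs, which moved that share to 47.2%, against 59.6%. This setting took cells of any label in the library, Treg cells included.

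Of the 8 genes, 4 called higher in lymph node Cd8 cells became 3 with a minimum of 50 CPM, which Smim24 does not reach, with a pseudocount of 10 CPM or without cells holding other markers, and 6 with no minimum. In the tumor, 7 of the 8 were called with a minimum of 50 CPM and 6 with a pseudocount of 10 CPM. Between the Cd4 groups the 3 became 0 with a minimum of 50 CPM. Cells with a receptor call, Cd4-labelled cells without Cd8 UMIs and cells without shared barcodes, chosen after seeing the data, gave the reported counts of the 8 wherever they applied. The log2 ratio of Matk in the lymph node ran between -0.64, with coreceptor UMIs in place of labels, and 0.12, with thinned cells. The 1049 lymph node cells classed as Cd4 by UMIs include 124 cells labelled Treg, in which Matk was at 62.6 CPM. It was at 13.2 CPM in the 854 of them labelled Cd4. The cause of these shifts was not tested.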
